A study of Homo sapiens with 12 samples.

Results

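The MICAL family was followed through 2 prostate cancer lines and 2 testosterone levels. Its 5 listed genes were MICAL1, MICAL2, MICAL3 and the MICAL-like genes MICALL1 and MICALL2, out of 58381 genes in the count files. All 5 symbols matched 1 gene identifier each, and all 5 passed the filter on low counts that left 19162 genes tested. The family was chosen because MICAL1 was called changed by testosterone in VCaP-CT cells and not in VCaP-T cells, so it was selected on the MICAL1 counts of these libraries. The values of MICAL1 at each testosterone level are therefore a description without a test.

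VCaP-T is a testosterone-dependent subclone of the prostate cancer line VCaP, obtained by long culture with 10 nM testosterone (T). VCaP-CT was derived from VCaP-T by long culture in 0.1 nM T and models castration resistance, so each line is 1 selected population. Poly(A) RNA of 12 libraries was sequenced, 3 for each of 4 groups: VCaP-CT cells given 10 nM T over 48 h, VCaP-CT cells kept in 0.1 nM T, VCaP-T cells left with 0.1 nM T over 48 h, and VCaP-T cells kept in 10 nM T. All were grown in hormone-stripped serum. The VCaP-CT cells were at passage 73 and the VCaP-T cells at passage 84, so line and passage cannot be told apart. The move of VCaP-CT to 10 nM T is called rechallenge and the move of VCaP-T to 0.1 nM T depletion. The labels do not say whether the replicates were separate cultures, so p-values measure the spread between these libraries, which may be technical. In RNA from whole cultures, fewer expressing cells and less RNA per cell cannot be told apart.

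MICAL proteins are flavin monooxygenases that oxidize methionine residues of actin, which takes filaments apart. Some methionine sulfoxide reductases can undo the oxidation. MICAL1, MICAL2 and MICAL3 carry the monooxygenase domain followed by calponin homology and LIM domains, whereas the MICAL-like proteins lack the enzyme domain and serve mainly as Rab effectors in membrane traffic.

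Depth lay between 30.2 and 40.8 M fragments counted in genes (mean 35.2 M). TMPRSS2, a textbook androgen receptor target used to check the testosterone labels, was higher after rechallenge (log2 fold change 1.87, edgeR adjusted p = 7.52e-09) and lower after depletion (log2 fold change -1.25, adjusted p = 3.19e-07). Levels per exon length are given as RPKM (fragments per kb of exon per M fragments of library size, scaled for composition). The 9 prostate epithelial markers summed to 931 to 1543 RPKM in every library. The sums were at most 1.85 RPKM for 7 fibroblast and smooth muscle markers, 1.64 RPKM for 5 endothelial markers and 2.49 RPKM for 3 basal markers. The 5 blood cell markers summed to 1.84 to 45.4 RPKM. LYZ ranged from 112 to 2819 normalized counts there, while PTPRC and CD3E stayed at or below 0.951. The part of these markers in the member results was not tested. Replicate 2 of the depleted VCaP-T cells stood apart from its group, with correlations of 0.965 and 0.970 to the other libraries of the group, whereas those within the other groups were at least 0.993.

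Because this library carries much of the spread of MICAL2 and MICAL3, its values are given first. In depleted replicate 2, MICAL2 was at 33.4% and MICAL3 at 21.9% of the mean of replicates 1 and 3. MICAL1 was at 83.8%, MICALL1 at 98.0% and MICALL2 at 142%. The library was low in genes with a long exon length in general. Its median log2 difference from replicates 1 and 3 was 0.28 for genes under 2 kb, 0.13 for 2 to 5 kb, -0.26 for 5 to 10 kb and -0.62 for over 10 kb. The shares of genes more than 2-fold below those replicates were 16.9%, 7.73%, 8.61% and 23.7% in that order, so many short genes were low too. No class median of the 9 libraries of the other groups exceeded 0.067 in size. MICAL2 and MICAL3 are the members with the longest total exon length, and they lay lower than genes of like length (exon length within 10%). The own log2 difference of MICAL2 was -1.58, against a median of -0.82 over 122 genes of like length, and that of MICAL3 was -2.18, against a median of -0.90 over 80. The part of gene length in the member results was not tested. Results are given with 12 libraries and, where stated, also without this one. A value with no such statement is from 12 libraries and may change without it.

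**Figure D1:**
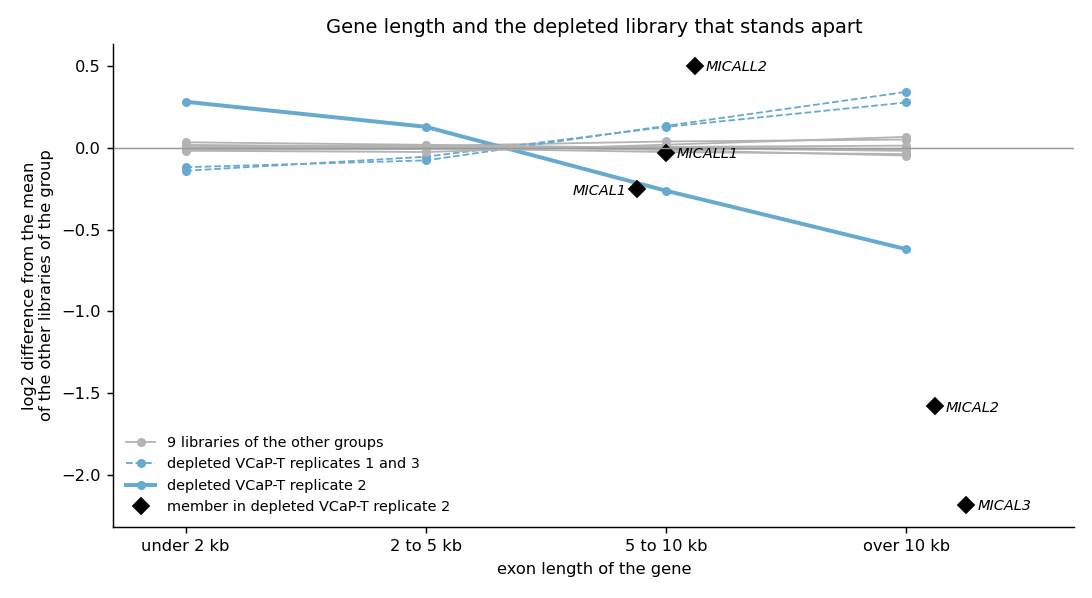
Median log2 difference of each library from the mean of the other libraries of its group (vertical axis) by class of exon length (horizontal axis), with the members of depleted VCaP-T replicate 2 as black diamonds. Depleted replicate 2 has class medians between 0.28 and -0.62, the 9 libraries of the other groups stay within 0.067 of 0, and MICAL2 (-1.58) and MICAL3 (-2.18) lie below their class.

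MICAL1 encodes the family member best known as an effector of plexin receptors in semaphorin signaling. The gene (ENSG00000135596.17) lies on the minus strand of chromosome 6 at chr6:109444062-109465968 (GRCh38, as in the files), and 4.32% of its 7056 bp of exon overlaps ZBTB24. Of its transcripts in Gencode 44, 1 protein-coding form begins at position 109465968 and several begin near 109455772. RefSeq promoter windows (GRCh38.p14), of which only the 250 bases before each start site were read, were found for all 5 members. The window next to the cluster of MICAL1 starts (chr6:109455892-109456141, minus strand) and 1 of the 2 MICAL3 windows (chr22:18024562-18024811, minus strand) are shown 5′ to 3′ with CG dinucleotides in capitals. They set MICAL1 beside the member with the smallest fold change in rechallenge.
MICAL1: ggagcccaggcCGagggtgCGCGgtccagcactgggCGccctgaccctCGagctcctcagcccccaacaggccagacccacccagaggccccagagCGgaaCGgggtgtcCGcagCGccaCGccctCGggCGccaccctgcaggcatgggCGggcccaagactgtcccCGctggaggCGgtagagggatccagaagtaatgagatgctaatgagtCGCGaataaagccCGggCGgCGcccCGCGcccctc
MICAL3: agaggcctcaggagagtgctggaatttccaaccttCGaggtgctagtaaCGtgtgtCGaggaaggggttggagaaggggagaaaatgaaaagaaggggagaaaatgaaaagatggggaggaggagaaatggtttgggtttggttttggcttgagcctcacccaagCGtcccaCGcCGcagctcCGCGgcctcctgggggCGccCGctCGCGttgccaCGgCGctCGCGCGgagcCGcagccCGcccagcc
The MICAL1 window shown held 22 CG dinucleotides, a number reached by 28% of the 35116 promoter windows of the table, and the MICAL3 window shown held 19, reached by 34.6%. The other MICAL3 window (chr22:17906887-17907136, minus strand) held 4, reached by 70.7%, and that of the far MICAL1 start held 2, reached by 85.3%. Which start was used in these cells was not tested. The sequence AGAACA, the core of the androgen receptor's DNA element, was searched on both strands and was in neither window shown. It occurred in 12.4% of all windows. Among the 8 windows of the family, it occurred 1 time, at base 116 of the window of the far MICAL1 start (chr6:109465969-109466218), which overlaps an annotated UTR and is not shown. The full palindrome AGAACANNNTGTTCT, which holds the shorter sequence on each strand, was in no window of the family and in 1 of all windows (0.00285%). Such matches describe letters in a window of 250 bases and not binding.

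MICAL1 mRNA was highest in rechallenged VCaP-CT cells and lowest in VCaP-CT cells kept in 0.1 nM T. Values are normalized counts, fragment counts scaled for library size and composition. The libraries gave 1019, 1075 and 1244 normalized counts in rechallenged VCaP-CT cells, against 470, 481 and 468 in VCaP-CT cells in 0.1 nM T. Depleted VCaP-T cells gave 874, 727 and 861, against 819, 774 and 744 in VCaP-T cells in 10 nM T. In VCaP-CT every 10 nM library was more than 500 counts above every 0.1 nM library, whereas the VCaP-T groups overlapped. The means were 1113 ± 117 and 473 ± 7.03 in VCaP-CT, and 821 ± 81.2 and 779 ± 37.5 in VCaP-T (SD, n = 3 each). The 2 neighbors in the order of the 4 groups that did not differ beyond their spread were thus the VCaP-T groups. The fold was 2.35 for rechallenge (log2 fold change 1.23 ± 0.10, SE) and 1.05 for depletion (log2 0.08 ± 0.10). These are the values that chose the gene. Against VCaP-T cells, MICAL1 was 1.65-fold lower in VCaP-CT with each line in its own medium, 1.74-fold lower with both in 0.1 nM T and 1.43-fold higher with both in 10 nM T.

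The mean of the lines over both T levels is a contrast the choice did not use. MICAL1 had a log2 difference of -0.14 ± 0.07 (SE; 95% interval -0.29 to 0.01), VCaP-CT over VCaP-T, and did not pass the threshold of an adjusted p under 0.01 (edgeR adjusted p = 0.109). Leaving out depleted replicate 2 gave -0.18 ± 0.05 with an adjusted p of 0.00622. The groups are then of unequal size, so this contrast is not independent of the depletion values that chose the gene. This average joins a level above and a level below those of VCaP-T.

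**Figure D2:**
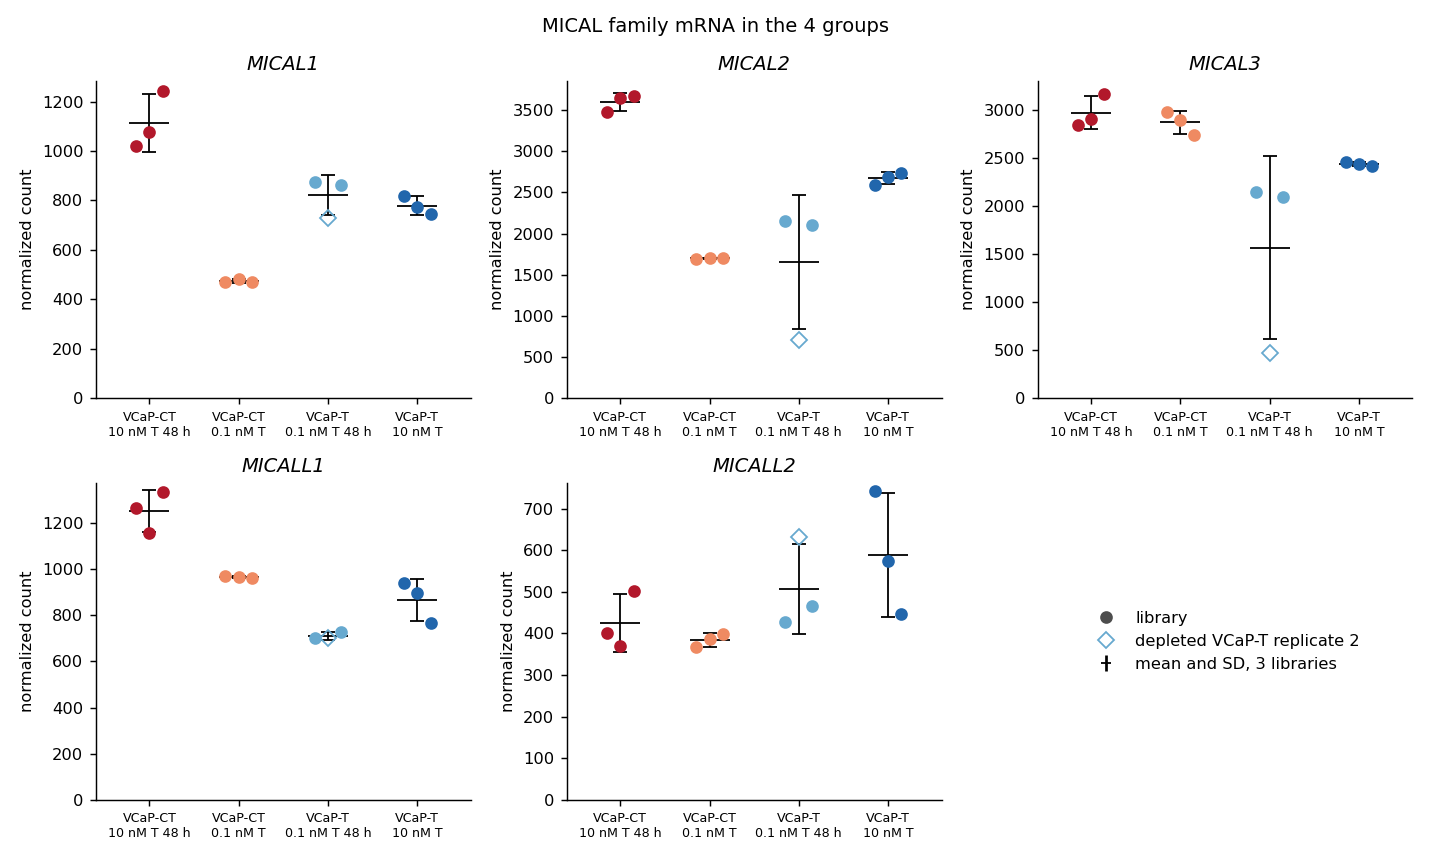
Normalized counts of the 5 members (vertical axes, from 0) in the 4 groups, with a point for each library, an open diamond for depleted VCaP-T replicate 2, and bars for the mean and SD of 3 libraries. MICAL1 averages 1113 in rechallenged VCaP-CT and 473 in VCaP-CT in 0.1 nM T, and the open diamonds of MICAL2 and MICAL3 lie at 709 and 464.

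MICAL2, which acts in the nucleus on actin and through it on the transcription factor SRF and its MRTF coactivators, was the other member with about a doubling after rechallenge. The gene (ENSG00000133816.14; chr11:12094008-12359144, plus strand) has 20193 bp of exon, of which 2.48% overlaps an antisense gene. MICAL2 had 3481, 3652 and 3671 normalized counts in rechallenged VCaP-CT cells, against 1696, 1701 and 1709 in 0.1 nM T. The groups lay far apart, with replicates that agreed closely. The log2 fold change was 1.08 ± 0.29 (SE), a fold of 2.12, with an edgeR adjusted p of 0.0169 in the model of 12 libraries. That model shares 1 estimate of the spread over the groups, so the depleted library enters it. Without that library the value was 1.08 ± 0.04 with an adjusted p of 3.71e-13, and in the VCaP-CT libraries alone the adjusted p was 2.79e-11.

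In VCaP-T cells MICAL2 moved with testosterone too, by less. It had 2150, 709 and 2100 normalized counts after depletion, against 2595, 2694 and 2731 in 10 nM T. All 3 depleted libraries were lower than the 3 others, and 1 of them far lower. The log2 fold change was -0.69 ± 0.29 (adjusted p = 0.107) with 12 libraries and -0.33 ± 0.05 (adjusted p = 2.12e-05) without replicate 2, a fold of 1.26 lower. The difference between the lines in the response to high over low T was 0.39 ± 0.40 on the log2 scale (adjusted p = 0.652) with 12 libraries. Without replicate 2 it was 0.75 ± 0.06 (95% interval 0.62 to 0.88, adjusted p = 1.80e-07). The call on the difference between the lines therefore rests on 1 library.

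MICAL3, which acts with Rab GTPases in the docking of exocytic vesicles, is the longest member (ENSG00000243156.7; chr22:17787649-18024559, minus strand). Of its 22354 bp of exon, 16.3% overlaps the gene ENSG00000093100, and fragments in the overlap were not counted for either gene. MICAL3 had 2836, 2905 and 3163 normalized counts after rechallenge, against 2977, 2891 and 2734 in VCaP-CT cells in 0.1 nM T. The groups overlapped, and the log2 fold change was 0.05 ± 0.37 (95% interval -0.77 to 0.87; adjusted p = 0.943). Without the depleted library the interval narrowed to -0.05 to 0.15 (adjusted p = 0.402). In VCaP-T it had 2142, 464 and 2089 after depletion, against 2454, 2435 and 2411 in 10 nM T. All 3 depleted libraries were lower. The log2 fold change was -0.63 ± 0.38 (adjusted p = 0.254), and -0.20 ± 0.05 (adjusted p = 0.0065) without replicate 2.

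MICALL1 organizes recycling endosomes with EHD1 and PACSIN2 (ENSG00000100139.13; chr22:37905657-37942822, plus strand; no overlap of its 5968 bp of exon with another gene). It had 1264, 1155 and 1336 normalized counts in rechallenged VCaP-CT cells, against 971, 965 and 962 in 0.1 nM T. Every rechallenged library was higher. With edgeR and 12 libraries MICALL1 was the 1 tested member that passed an adjusted p under 0.01 in this comparison (log2 fold change 0.37 ± 0.09, edgeR adjusted p = 0.0090). The adjusted p was 0.000215 without depleted replicate 2. Leaving out any other library except replicate 3 of VCaP-T in 10 nM T ended this call, with an adjusted p of up to 0.0394. After depletion MICALL1 had 700, 700 and 729 normalized counts, against 938, 898 and 766 in VCaP-T cells in 10 nM T. The groups did not overlap, but the log2 fold change of -0.29 ± 0.09 missed the threshold with 12 libraries (adjusted p = 0.0389) and without replicate 2 (adjusted p = 0.0108). The response to high over low T differed between the lines by 0.08 ± 0.13 on the log2 scale (95% interval -0.19 to 0.36; adjusted p = 0.756).

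MICALL2, a partner of RAB13 and RAB8 at epithelial junctions, had the lowest mean level per exon length in each group (ENSG00000164877.18; chr7:1428465-1459502, minus strand; 8843 bp of exon). It had 401, 369 and 502 normalized counts after rechallenge, against 367, 386 and 399 in VCaP-CT cells in 0.1 nM T. Depleted VCaP-T cells had 426, 631 and 465, against 743, 575 and 446 in 10 nM T. Groups overlapped in both lines. The log2 fold change was 0.14 ± 0.19 for rechallenge (95% interval -0.28 to 0.57; adjusted p = 0.648) and -0.21 ± 0.19 for depletion (-0.63 to 0.20; adjusted p = 0.445). Without depleted replicate 2 MICALL2 had -0.40 ± 0.15 for depletion (95% interval -0.72 to -0.08, edgeR adjusted p = 0.0464). Its coefficient of variation was 25.4% in VCaP-T in 10 nM T, the highest of the members in that group.

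Over the 4 members tested on testosterone, 1 was higher after rechallenge at an adjusted p under 0.01 with edgeR and 12 libraries. Of all genes, 7.07% were higher and 7.19% lower. DESeq2 passed 2 of the 4 in rechallenge, against 3553 of 37997 genes. The VCaP-CT libraries alone also passed 2, against 6981 of 17793 genes. After depletion 0 of 4 passed with edgeR and DESeq2, against 3.83% of all genes lower and 6.15% higher. Of the 4, 2 had an unadjusted p under 0.05, and limma voom with sample quality weights, added after seeing the data, passed 3. Without replicate 2, MICAL2 and MICALL1 were higher after rechallenge, against 19% of all genes higher and 17.6% lower, and MICAL2 and MICAL3 were lower after depletion, against 12.6% of all genes lower and 14.4% higher. Groups did not overlap for 2 of the 4 in rechallenge, both higher, against 27.4% of all genes, and for 3 in depletion, all lower, against 17.6%. In the difference of response between the lines 0 of 4 passed with edgeR and DESeq2 (0 at an unadjusted p under 0.05, 1 with limma voom), against 0.804% of all genes higher and 0.162% lower. MICAL2 passed without replicate 2, against 5.62% of all genes higher and 1.77% lower. At the thresholds of the study, which also ask for a log2 fold change over 1 in size, 0 of 29 tests of members passed with 12 libraries (edgeR). The study applied these thresholds with DESeq2, and here they were applied in full to the edgeR fit only. The 0 of 29 therefore does not say whether a member would pass them with DESeq2. Of all genes 3.14% passed for depletion, 5.14% for rechallenge, 12.7% for the lines in own medium, 10.2% in 10 nM T, 12.3% in 0.1 nM T, 13.4% for the line average and 0.564% for the difference of response. With depleted replicate 2 left out MICAL2 met the adjusted p and the fold in rechallenge.

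**Figure D3:**
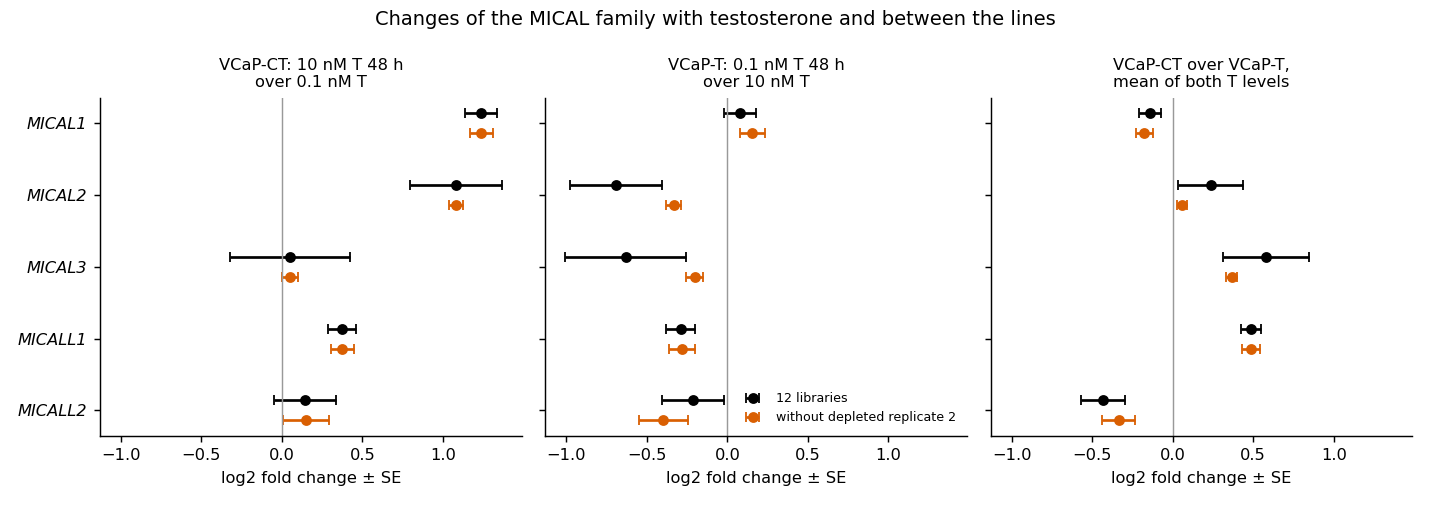
Log2 fold changes with SE (horizontal axes) of the 5 members for rechallenge of VCaP-CT, depletion of VCaP-T and the mean of VCaP-CT over that of VCaP-T, with 12 libraries (black) and without depleted replicate 2 (orange). In rechallenge MICAL1 (1.23) and MICAL2 (1.08) lie to the right of the others in both fits, and in depletion MICAL2 and MICAL3 move from -0.69 and -0.63 to -0.33 and -0.20 when the library is left out.

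Between the lines, MICALL1 was the 1 member that passed on the average over both T levels with 12 libraries. It was higher in VCaP-CT by 0.49 ± 0.06 on the log2 scale (edgeR adjusted p = 4.00e-05), and every VCaP-CT library was above every VCaP-T library, against 12.5% of all genes. It was 1.44-fold higher with both lines in 10 nM T (adjusted p = 0.000564) and 1.36-fold higher with both in 0.1 nM T (adjusted p = 0.0017). With each line in its own medium the log2 difference was 0.16 ± 0.09 (adjusted p = 0.182).

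MICAL3 was higher in VCaP-CT by 0.58 ± 0.27 on the average (adjusted p = 0.0877), and its groups did not overlap between the lines. Leaving out depleted replicate 2 made it 0.37 ± 0.04 (adjusted p = 4.92e-08). MICALL2 lay at -0.43 ± 0.14 (adjusted p = 0.0178), and at -0.34 ± 0.10 (adjusted p = 0.00803) without that library. MICAL2 had no clear difference on the average, with 0.23 ± 0.20 (adjusted p = 0.354) and 0.06 ± 0.03 (adjusted p = 0.116) without the library. In counts, 1 of 5 members was higher on the average, against 19.2% of all genes higher and 21.3% lower. Without the library 2 were higher, against 29.6% of all genes, and 2 lower, against 29.5%. The lower ones were MICALL2 and MICAL1. In that fit the contrast of MICAL1 is not independent of the values that chose it, so its pass cannot count as a test.

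The single line comparisons of MICAL2 depended on the T level. With each line in its own medium the log2 difference of VCaP-CT over VCaP-T was -0.65 ± 0.29 (adjusted p = 0.0861), and -0.65 ± 0.04 without the library (adjusted p = 1.81e-10). With both in 10 nM T it was 0.43 ± 0.29 (adjusted p = 0.264), and 0.43 ± 0.04 without the library (adjusted p = 5.16e-08). With both in 0.1 nM T it turned sign with the library, 0.04 ± 0.29 with it (adjusted p = 0.926) and -0.32 ± 0.05 without it (adjusted p = 1.48e-05). Over the 4 members tested, 0 passed with each line in its own medium with edgeR and DESeq2 (2 at an unadjusted p under 0.05, 3 with limma voom), against 14.8% of all genes higher and 15.7% lower. MICALL1 alone passed with both in 10 nM T, against 12% of all genes higher and 13.2% lower, and alone with both in 0.1 nM T, against 13% higher and 16.4% lower. Without the library the members that passed were 1 higher and 2 lower in own medium (26.7% of all genes each way), 3 higher and 1 lower in 10 nM T (24.7% and 23.2%), and 2 higher and 1 lower in 0.1 nM T (23.2% and 24.4%).

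Set against each other per exon length, the members ranked differently in the 4 groups. In rechallenged VCaP-CT cells the order of mean RPKM was MICALL1 (5.95), MICAL2 (5.06), MICAL1 (4.48), MICAL3 (3.77) and MICALL2 (1.36). MICAL2 and MICAL1 overlapped there, and the other neighbors did not. In VCaP-CT cells in 0.1 nM T it was MICALL1 (4.59), MICAL3 (3.64), MICAL2 (2.39), MICAL1 (1.90) and MICALL2 (1.23), with no overlap between neighbors.

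In depleted VCaP-T cells the means were 3.38 RPKM for MICALL1, 3.30 for MICAL1, 2.32 for MICAL2, 1.99 for MICAL3 and 1.63 for MICALL2, and all neighbors overlapped over the 3 libraries. MICAL2 and MICAL3 reached 3.02 and 2.72 RPKM there in the libraries other than replicate 2, in which they lay at 0.996 and 0.589. In VCaP-T cells in 10 nM T they were 4.13 for MICALL1, 3.76 for MICAL2, 3.13 for MICAL1, 3.09 for MICAL3 and 1.89 for MICALL2, where MICALL1 overlapped MICAL2 and MICAL1 overlapped MICAL3. With 12 libraries MICALL1 had the highest mean and MICALL2 the lowest in each group. In depleted VCaP-T cells the first place of MICALL1 rests on replicate 2, at 3.33 RPKM against 2.93 for MICAL1. Replicates 1 and 3 had 3.33 and 3.47 for MICALL1, and 3.51 and 3.46 for MICAL1. The span of means given next for that group includes replicate 2 too. The highest and lowest means were 4.37-fold apart in rechallenged VCaP-CT cells and 3.73-fold in VCaP-CT in 0.1 nM T, against 2.07-fold in depleted VCaP-T cells and 2.19-fold in VCaP-T in 10 nM T. The exon lengths join all annotated transcripts of a gene, so a gene with many unused exons reads low on this scale. They also include exon shared with other genes, where fragments were not counted. This is 16.3% of the exon length of MICAL3, whose rank may therefore read low.

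**Figure D4:**
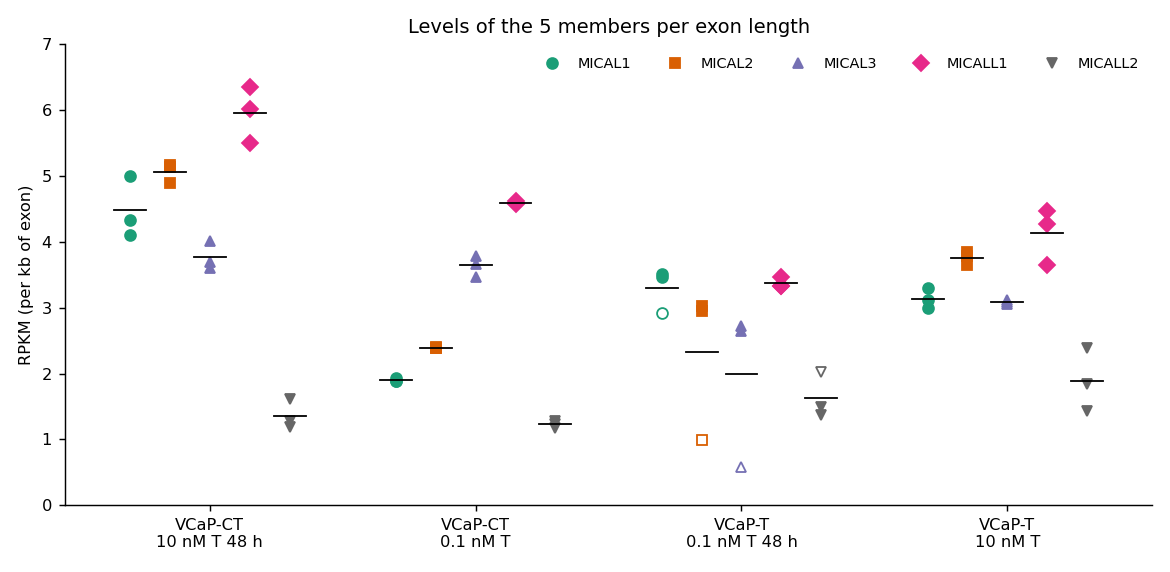
RPKM (vertical axis, fragments per kb of exon per M fragments of library size, scaled for composition) of the 5 members in each group, with a point for each library, open points for depleted VCaP-T replicate 2 and short lines for means. With 12 libraries MICALL1 has the highest mean and MICALL2 the lowest in all 4 groups, but the first place in depleted VCaP-T rests on replicate 2. MICAL1 lies at 4.48 RPKM in rechallenged VCaP-CT and at 1.90 in VCaP-CT in 0.1 nM T.

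The genes with the pattern most like that of MICAL1 were ranked by Pearson's r of log2 normalized counts over the 12 libraries, which share scaling and group structure. They were BAIAP2L1 (r = 0.978), CTDSPL (0.957), DAP (0.957), RAET1E (0.95) and CNDP2 (0.948). RAET1E averaged 85.1 normalized counts in rechallenged VCaP-CT and 13.9 in VCaP-CT in 0.1 nM T, and 47.7 in depleted VCaP-T and 58.4 in VCaP-T in 10 nM T. The other 4 genes had mean levels between 2659 and 9003 with the same low group. Of these 5 genes, 0 were among the 5 highest by Spearman's rho, so the names depend on the measure. The other members had an r with MICAL1 of 0.59 for MICAL2, 0.30 for MICALL1, 0.25 for MICALL2 and 0.02 for MICAL3. Depleted replicate 2 enters these values, with MICAL2 at 709 and MICAL3 at 464 normalized counts. They were not computed without it, so they do not show how closely MICAL2 or MICAL3 follows MICAL1 in the other libraries.

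The 4 methionine sulfoxide reductases were listed as the counterpart of the MICAL enzymes. Whether each of the 4 restores oxidized actin was not tested. MSRB3 was lower after rechallenge and higher after depletion, at 5.15 ± 0.21 normalized counts in rechallenged VCaP-CT, against 18.0 ± 6.01 in VCaP-CT in 0.1 nM T, and 135 ± 18.0 in depleted VCaP-T, against 60.0 ± 3.04 in VCaP-T in 10 nM T (SD, n = 3 each). Its log2 fold change was -1.78 ± 0.33 for rechallenge (adjusted p = 0.00196), 1.17 ± 0.18 for depletion (adjusted p = 0.000922) and -3.21 ± 0.17 for the line average (adjusted p = 1.90e-08). MSRA was lower in VCaP-CT on the average (log2 -1.50 ± 0.29, adjusted p = 0.000965), at a level of 6.22 to 29.2 normalized counts by group mean. MSRB1, which in mouse cells reduces actin oxidized by MICAL proteins, averaged 463 ± 43.2 normalized counts after rechallenge and 397 ± 1.48 in VCaP-CT in 0.1 nM T. Its log2 fold change was 0.22 ± 0.15 (adjusted p = 0.322), and 0.24 ± 0.15 for depletion (adjusted p = 0.266). The median of the 4 reductases was -0.03 for rechallenge, against -0.02 over all genes tested, 0.47 for depletion, against 0.04, and -0.77 for the line average, against -0.01. Without depleted replicate 2 the median was 0.20 for depletion, against 0.02, and MSRB1 had 0.01 for depletion (edgeR adjusted p = 0.933). In that fit MSRB2 passed, higher after depletion (log2 0.38, adjusted p = 0.00132) and lower after rechallenge (log2 -0.28, adjusted p = 0.00443).

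Of 14 measured regulators and binding partners of the family, PAK1 and CRMP1 changed in both lines. PAK1, a kinase that phosphorylates and activates MICAL1, was at 1766 ± 36.1 normalized counts in rechallenged VCaP-CT, against 2819 ± 62.2 in VCaP-CT in 0.1 nM T, and at 3732 ± 68.9 in depleted VCaP-T, against 2456 ± 102 in VCaP-T in 10 nM T. Its log2 fold change was -0.67 for rechallenge (adjusted p = 1.41e-05) and 0.60 for depletion (adjusted p = 5.72e-05). CRMP1, a collapsin response mediator of semaphorin signaling, fell by 0.52 on the log2 scale after rechallenge (adjusted p = 0.000517) and was 0.35 higher after depletion (adjusted p = 0.00838). Rechallenge thus had 0 of 14 higher and 2 lower, against 7.07% and 7.19% of all genes, and depletion 2 higher and 0 lower, against 6.15% and 3.83%. Between the lines 4 were higher in VCaP-CT, against 19.2% of all genes, namely NRP1 (log2 1.01), PLXNA1 (0.59), PLXNA2 (0.68) and PLXNA3 (0.61), which are receptors and a coreceptor of semaphorins. The 4 lower ones, against 21.3% of all genes, were CRMP1 (-0.80), PAK1 (-0.44), DPYSL2 (-0.36), of the same mediator family as CRMP1, and STK38 (-0.28), a kinase of the NDR type that binds MICAL1. With depleted replicate 2 left out, 7 of 14 were higher and 0 lower after depletion, against 14.4% and 12.6% of all genes.

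Among 18 Rab proteins and membrane traffic partners, RAB1A (log2 0.46, adjusted p = 0.00573), PACSIN2 (0.42, adjusted p = 0.00376) and RAB35 (0.41, adjusted p = 0.00466) were higher after rechallenge, against 7.07% of all genes, and 0 were lower, against 7.19%. RAB35 regulates recycling endosomes, and the membrane-bending protein PACSIN2 binds MICALL1. The list had a median of 0.19, against -0.02 over all genes. Without depleted replicate 2, 8 of 18 were higher after rechallenge and 0 lower, against 19% and 17.6% of all genes. After depletion 0 of 18 passed with edgeR, against 6.15% of all genes higher and 3.83% lower, and without replicate 2 there were 1 higher and 6 lower, against 14.4% and 12.6%. EHD1, the endosomal partner of MICALL1, was higher in VCaP-CT on the line average (log2 0.48 ± 0.07, adjusted p = 5.71e-05), as were PACSIN2 (0.44) and ACAP2 (0.38). RAB15 (-1.21), EHD3 (-0.44) and RAB1A (-0.36) were lower. These are 3 of 18 each way, against 19.2% of all genes higher and 21.3% lower. RAB8A and RAB13 did not pass in rechallenge with 12 libraries (log2 0.29, adjusted p = 0.169, and 0.08, adjusted p = 0.799). Without depleted replicate 2 RAB8A passed as higher and RAB13 did not pass. The remaining list of bMERB domain proteins, which share the Rab-binding end of MICAL proteins, had 2 measured genes, of which EHBP1L1 was lower in VCaP-CT on the line average (log2 -0.93, adjusted p = 1.16e-06).

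Of 15 measured genes of actin filament disassembly, 3 were higher and 2 lower after rechallenge, against 7.07% and 7.19% of all genes. The severing proteins gelsolin and adseverin were the lower ones: GSN had a log2 fold change of -1.21 (adjusted p = 0.00218) and SCIN of -0.78 (adjusted p = 1.49e-05). CAP2 (1.03), CORO1B (0.72) and WDR1 (0.43), which assist cofilin or act on actin turnover, were higher. After depletion GSN (1.25, adjusted p = 0.000455) and SCIN (0.53, adjusted p = 0.000263) were higher and 0 were lower, against 6.15% and 3.83%. Between the lines 1 of 15 was higher in VCaP-CT and 9 were lower, against 19.2% and 21.3% of all genes. SCIN (-3.20), GSN (-2.37), CAP2 (-1.24) and CORO1A (-0.92) had the largest of these differences. When depleted replicate 2 was left out, 16 genes were measured, and 4 were higher and 4 lower after depletion, against 14.4% and 12.6%.

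SRF and the MRTF coactivators, on which MICAL2 is known to act, did not pass in either testosterone comparison. SRF had a log2 fold change of 0.16 ± 0.07 for rechallenge (adjusted p = 0.116) and -0.18 ± 0.07 for depletion (adjusted p = 0.0833). It was higher in VCaP-CT on the line average (0.58 ± 0.05, adjusted p = 1.21e-06), at 2036 ± 71.0 normalized counts after rechallenge and 1817 ± 35.3 in 0.1 nM T, against 1210 ± 29.9 in depleted VCaP-T and 1375 ± 83.5 in VCaP-T in 10 nM T. Of 22 measured SRF and MRTF genes and targets, TPM1 was higher (log2 0.49, adjusted p = 0.000889) and TPM2 (-1.56, adjusted p = 0.000455) and TAGLN2 (-0.61, adjusted p = 0.00994) lower after rechallenge, against 7.07% of all genes higher and 7.19% lower. TPM2 (1.17) and TAGLN2 (0.65) were higher after depletion and 0 were lower, against 6.15% and 3.83%. TPM1 was the 1 gene of all 8 lists with a response that differed between the lines with 12 libraries (0.70 ± 0.11 on the log2 scale, adjusted p = 0.00658). TPM1 and TPM2 encode tropomyosins, which coat actin filaments. On the line average 4 of 22 were higher and 5 lower, shares near the 19.2% and 21.3% of all genes. They were led by MYL9 (-2.22), TAGLN2 (-0.99) and JUNB (-0.86), with FLNA (0.63) the largest of those higher. Rechallenge had 4 higher and 4 lower without depleted replicate 2, against 19% and 17.6%.

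Of 23 actin nucleators and branching factors, FMNL2 (log2 0.76), DIAPH1 (0.57) and ACTR2 (0.43) were higher after rechallenge, and DIAPH2 (-0.52) and WASF1 (-0.34) lower, against 7.07% of all genes higher and 7.19% lower. FMNL2, DIAPH1 and DIAPH2 are formins and ACTR2 is a subunit of the Arp2/3 complex. After depletion WASF1 was higher (0.51) and ACTR2 lower (-0.37), against 6.15% and 3.83%. The median for rechallenge was 0.24, against -0.02 over all genes, and without depleted replicate 2 the count was 13 higher and 4 lower, against 19% and 17.6% of all genes. On the line average 3 were higher and 7 lower, against 19.2% and 21.3%, led by FMNL2 (-2.35) and ARPC1B (-1.09).

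The LIM and calponin domain relatives had 1 of 19 measured genes higher and 3 lower after rechallenge, against 7.07% and 7.19% of all genes. CSRP1 was higher (log2 0.71) and CSRP2 (-1.62), LASP1 (-1.36) and CRIP2 (-1.35) were lower. After depletion CRIP1 (1.66), LASP1 (1.03), FHL3 (0.84) and PDLIM1 (0.70) were higher and 0 were lower, against 6.15% and 3.83%. LASP1, a LIM and SH3 protein of focal adhesions, was lower after rechallenge and higher after depletion (adjusted p = 4.36e-06 for rechallenge and 4.69e-05 for depletion). On the line average 4 were higher and 7 lower, against 19.2% and 21.3%, among them CSRP2 (-2.17), LIMCH1 (0.96), PDLIM1 (-0.96) and LMO7 (-0.89). Over the 8 lists, 11 of 117 measured genes were higher and 12 lower after rechallenge, against 7.07% and 7.19% of all genes, and 12 were higher and 1 lower after depletion, against 6.15% and 3.83%. The counts depended on depleted replicate 2, without which 39 of 119 measured genes were higher and 23 lower after rechallenge, against 19% and 17.6% of all genes, and 27 were higher and 17 lower after depletion, against 14.4% and 12.6%. The line average had 19 higher and 38 lower with 12 libraries, against 19.2% and 21.3% of all genes, and 33 higher and 58 lower without that library, against 29.6% and 29.5%. For the difference of response between the lines 19 were higher and 1 lower without it, against 5.62% and 1.77%.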

How the data were processed

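The counts, as deposited by the authors, are whole numbers of fragments per gene from 12 TruSeq stranded mRNA libraries. The submitters' notes name STAR 2.5.4b, GRCh38, Gencode 28 and featureCounts 1.6.2. Counting ignored strand, per the file headers, and dropped fragments shared by several genes. The 12 columns of the authors' normalized table were not used. Tests were run with edgeR 4.0.16 under R 4.3.3 (quasi-likelihood test, TMM, default filter on low counts, Benjamini-Hochberg adjustment over 19162 genes) in 1 model of 4 groups, with no block. Normalized counts are counts scaled by TMM. RPKM uses the same TMM-scaled library sizes, taken over the genes tested. The thresholds were those of the study: adjusted p under 0.01, log2 fold change over 1 in size and group medians over 13 normalized counts apart. The last was not used for the line average and the difference of response. Library depth was 30.2 to 40.8 M fragments, and members had 326 to 3515 counts in a library.

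The members and lists were chosen with earlier results of these data known. Named genes are the 5 members, TMPRSS2, the 5 genes most like MICAL1 and, from each list and comparison, up to 4 genes with the largest log2 fold change among those that passed. Direct partners of the family could be named whatever their change. WDR1 and WASF1 in rechallenge, and MSRB2 in the fit without depleted replicate 2, were named after their values were seen. Alternatives were another scaling, no filter, DESeq2 1.42.0, a replicate block, the libraries of a comparison alone and leaving out each library. limma 3.58.1 (voom with sample quality weights) and list counts without 1 library were added after seeing the data. Scripts were tested on simulated data. MICALCL, 1 of the listed bMERB genes, was not analysed here.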

Additional observations from a re-analysis of the deposited data

How the results depend on the processing

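The number of members at an adjusted p under 0.01 changed when depleted VCaP-T replicate 2 was left out and when limma voom gave it a low sample weight of 0.034. With 12 libraries and edgeR it was 0 of 4 for depletion, 1 of 4 for rechallenge, 0, 1 and 1 of 4 for the lines in own medium, in 10 nM T and in 0.1 nM T, 1 of 5 for the line average and 0 of 4 for the difference of response. With voom it was 3, 2, 3, 4, 3, 4 and 1 in that order. Leaving out 1 library at a time gave 0 to 2 for depletion, 0 to 2 for rechallenge, 0 to 3, 1 to 4 and 1 to 3 for the lines, 1 to 4 for the line average and 0 to 1 for the difference of response, each highest value being the one without depleted replicate 2. The 4 for the line average include MICAL1, whose contrast in that fit is not independent of the values that chose it. The call of MICALL1 in rechallenge lay close to the threshold, with an adjusted p between 0.000215 and 0.0394 over these fits. DESeq2 gave 2 for rechallenge. The libraries of the comparison alone gave 2 for rechallenge, and 3 for the lines in own medium and 3 in 10 nM T. With no filter the lines gave 1 in own medium and 2 in 0.1 nM T, and the line average gave 2. Another scaling changed no count. With the replicate number as a block rechallenge gave 0, and no other count changed. The labels do not say whether the numbers pair the libraries. Deviations of same-numbered libraries correlated between -0.155 and 0.055 over 15 pairs. Such deviations from the means of small groups cannot exclude a pairing. Directions reversed for MICAL2 with both lines in 0.1 nM T (range -0.32 to 0.27 with 1 library left out, -0.32 without depleted replicate 2, and -0.30 with voom) and for MICALL2 in the difference of response (range -0.25 to 0.13, 0.13 without VCaP-T 10 nM T replicate 1, 0.05 without depleted replicate 1 and 0.02 without VCaP-CT 10 nM T replicate 2). The cause was not tested. Of the 5 genes most like MICAL1, 0 were among the 5 highest by Spearman's rho. The share of a member in the summed RPKM of a library is the same by TPM by construction, so that alternative tests nothing.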
